A study of Rattus norvegicus with 4 samples.

Results

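The collagen genes were taken from the deposited count table as all protein-coding rows whose symbol has the form Col, a number, a and a number. The rule found 44 genes among 54532 rows, and all 44 symbols are also rat genes in RefSeq (assembly GRCr8). The libraries come from ear skin of 2 Sprague Dawley rats, taken 3 days after adeno-associated virus (AAV) was injected at the site. Each rat gave a control library, from the ear given control virus and labelled wt, and an AAV-Fgf7 library, from the ear given virus with Fgf7 and labelled Fgf7 overexpression; these are called control ears and Fgf7 ears, and paired values name rat 1 first. Each group thus held 2 libraries, and every library came from an ear that had been injected with a virus. Uninjected skin was not analysed here, and the promoter in the virus and the cells it entered are unstated in the sources used here. Titles and design text disagree on which ear, left or right, got which virus, so side was not used.

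Collagens are secreted proteins of 3 chains wound around each other, each chain holding long runs of repeats that begin with glycine. Fibrillar collagens such as types I, III and V make the cables that give dermis its strength, while types II, IX and XI make the finer fibrils of cartilage, which supports the ear. Network-forming type IV builds the sheet of basement membrane under epithelia and around vessels, and types VII and XVII fasten the epidermis to it. Fibroblasts make most dermal collagen, chondrocytes that of cartilage, and basal keratinocytes type XVII. FGF7 is a growth factor that acts on keratinocytes through a receptor form that fibroblasts and chondrocytes largely lack, so most collagen genes belong to the tissue around its target cells.

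Promoters from RefSeq (rat GRCr8, 250 bases before to 50 after a listed start) matched 35 of the 44 symbols, 13 of them tested. They are shown for the member of lowest p, for the cartilage collagen with the most counts, and for a pair of type IV genes that start back to back. In the windows of Col1a2 (chr4:33518307-33518606, plus strand) and Col11a1 (chr2:204508886-204509185, plus strand), capitals mark TATAAA or CCAAT on either strand. In the window of Col4a1 (chr16:84885347-84885646, plus strand), capitals mark the 76 bases between the listed start of Col4a1 and that of Col4a2 on the minus strand.
Col1a2: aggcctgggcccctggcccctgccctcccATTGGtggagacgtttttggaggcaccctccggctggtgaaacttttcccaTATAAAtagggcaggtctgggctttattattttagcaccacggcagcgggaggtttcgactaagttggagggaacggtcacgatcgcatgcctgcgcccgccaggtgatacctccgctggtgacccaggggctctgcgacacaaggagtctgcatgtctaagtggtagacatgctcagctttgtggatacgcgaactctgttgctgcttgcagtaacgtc
Col11a1: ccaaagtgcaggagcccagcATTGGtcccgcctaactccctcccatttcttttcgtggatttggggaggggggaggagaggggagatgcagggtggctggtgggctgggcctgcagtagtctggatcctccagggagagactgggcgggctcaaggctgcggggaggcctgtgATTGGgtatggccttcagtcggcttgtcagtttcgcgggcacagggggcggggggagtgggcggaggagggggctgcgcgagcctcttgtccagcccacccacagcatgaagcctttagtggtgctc
Col4a1: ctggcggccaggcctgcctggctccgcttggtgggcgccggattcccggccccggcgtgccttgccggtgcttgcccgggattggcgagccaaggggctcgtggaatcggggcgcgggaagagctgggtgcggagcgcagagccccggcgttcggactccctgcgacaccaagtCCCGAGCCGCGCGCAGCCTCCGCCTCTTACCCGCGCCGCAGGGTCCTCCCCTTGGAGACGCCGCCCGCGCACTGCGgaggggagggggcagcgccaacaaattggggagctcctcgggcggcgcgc

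The motif TATAAA (complement TTTATA), the core of the TATA box, was in a window of 4 of 35 collagen genes (Col10a1, Col13a1, Col17a1 and Col1a2) and in 14.2% of all 33469 RefSeq windows of this length. The motif CCAAT (complement ATTGG) was in 11 of 35 collagen genes and in 37.5% of all windows. Collagens were counted by gene, with a match in any of their 38 windows, whereas both percentages are of windows. In Col1a2 the TATAAA began 170 bases and the ATTGG 221 bases before the listed start. In Col11a1 the ATTGG matches began 230 and 77 bases before its listed start. The Col1a2 window reads atg, the letters of a start codon, from its listed start on. These distances are thus counted from a listed start, which need not be where transcription begins. All these matches describe letters, not binding.

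The 4 libraries held 1299136 to 1601321 counts each, and the low-count filter of edgeR kept 6370 genes. Fgf7 itself, read as a check of the labels, had 94 and 110 counts in control ears and 454 and 1429 in Fgf7 ears. The gene models are those of mouse, and the way rat reads came to be counted on them is unstated. Markers of dermal fibroblasts other than collagens were in part missing: 5 of 11 (Dcn, Lum, Mfap5, Dpt and Twist2) had no counts, although the fibronectin gene Fn1 had 3375 to 4181 counts a library. A low collagen count under these models therefore does not show that the transcript was scarce. The 2 libraries of a group come from different rats, and p-values measure the spread between these samples only.

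Collagen transcripts made up 3.73% and 4.13% of all counts in control ears, and 4.31% and 3.01% in Fgf7 ears. Of summed FPKM, which divides by gene length, they made up 1.25% and 1.40% in controls and 1.47% and 1.01% in Fgf7 ears. On either scale the highest and the lowest share were both in Fgf7 ears. Of 44 members, 21 passed the filter and were tested, and these held 99.9% of all collagen counts. The other 23 had no counts (6 genes) or a total of 1 to 38 counts over the 4 libraries (17 genes). Fitted with no filter beyond 1 count, those 17 gave 0 calls and 0 at an unadjusted p under 0.05.

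No collagen gene differed between AAV-Fgf7 and control ears by the edgeR quasi-likelihood test at an adjusted p under 0.05. The background was the same, with 0% of 6370 genes called (0 genes; 148 at an unadjusted p under 0.05). DESeq2 and limma-voom also called 0 collagen genes, against 4 and 0 genes in all. Adjusted p was 0.9996 for each of the 21 members. At an unadjusted p under 0.05 there was 1 member, Col1a2, which was lower in Fgf7 ears. That is 4.76% of the members, beside 0.612% of all genes lower at this level; 0 members were higher, beside 1.71% of all genes.

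Log2 fold changes of AAV-Fgf7 over control were below 0 for 19 of 21 members, beside 52.2% of all tested genes. Their median was -0.29, against -0.02 over all tested genes. The count rested on single libraries: it was 9 of 21 without the control library of rat 2, and 12 of 21 without the Fgf7 library of rat 2. Without the control of rat 1 it was 20 of 21. Both Fgf7 libraries lay below both controls for 4 members (Col1a2, Col5a2, Col14a1 and Col22a1), or 19.0% beside 13.3% of all genes. They lay above both controls for 1 member, Col6a3, or 4.76% beside 14.8% of all genes. The groups overlapped for the other 16 members, 76.2% beside 71.9%. As these are pieces of whole skin, fewer cells of a type and less RNA per cell cannot be told apart.

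**Figure D1:**
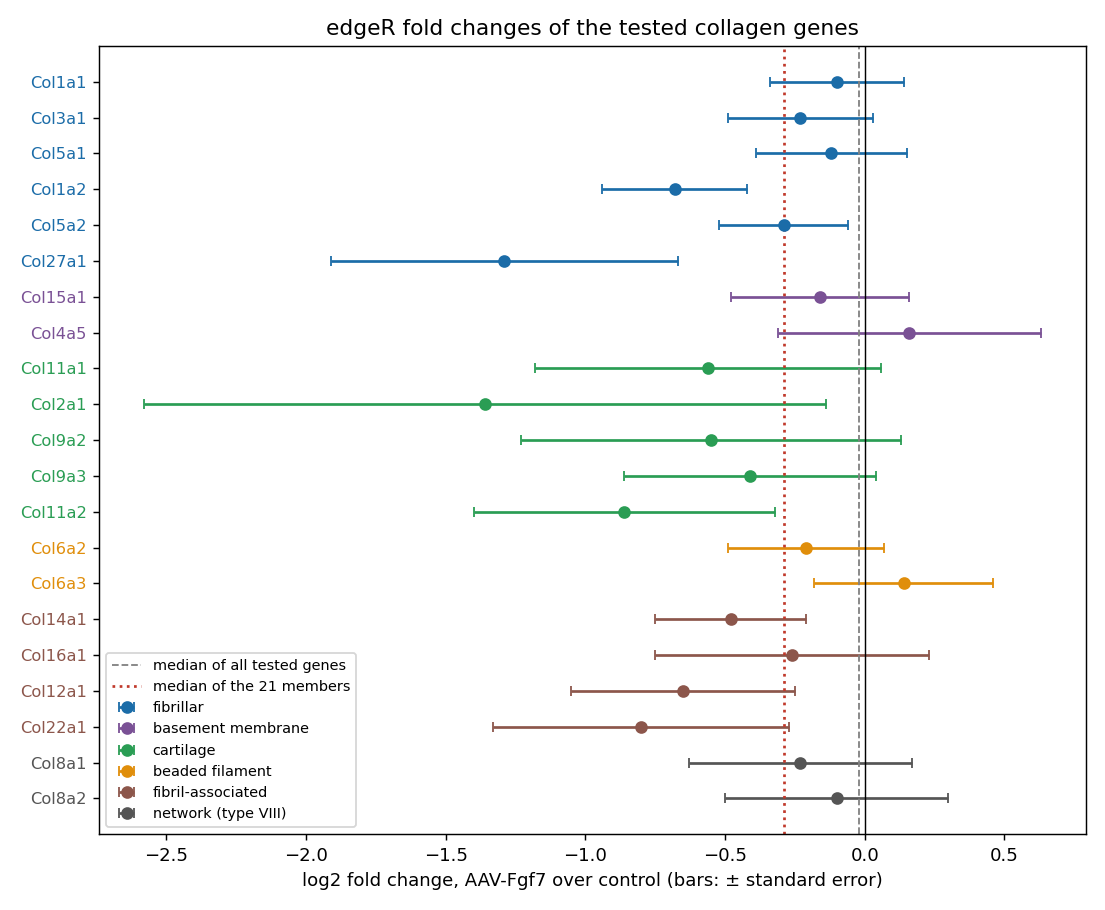
Log2 fold change of AAV-Fgf7 over control for the 21 tested collagen genes (x axis), ordered by class, as points with standard errors from edgeR (n = 2 libraries a group). The members' median (dotted line) is -0.29 and that of all tested genes (dashed line) -0.02, and Col2a1 has the widest bar.

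Fibrillar collagens held 92.9% to 95.8% of collagen counts in each library. This class leaves out types II and XI, which form cartilage fibrils and were counted in the cartilage class. The cartilage class held 0.881% and 3.05% in control ears and 1.52% and 1.13% in Fgf7 ears. Col1a1, the major chain of type I collagen, was the most abundant member and alone held 75.4% (exact 95% binomial interval 75.03 to 75.8) and 73.1% (72.8 to 73.5) of collagen counts in control ears. In Fgf7 ears it held 75.9% (75.5 to 76.2) and 77.6% (77.2 to 78.0). These intervals cover counting error only, and no molecular identifiers are described. The table lists Col1a1 as ENSMUSG00000001506 at mouse chr11:94936224-94953042, plus strand, and its length as 6563 bases. Which mouse build the listed coordinates follow is unstated.

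Scaled levels are given as CPM, counts per 1e+06 of the TMM-scaled library total. Col1a1 stood at 27766 and 32183 CPM in control ears, and at 33080 and 22941 CPM in Fgf7 ears. The Fgf7 libraries thus held its highest and its lowest level, and its log2 fold change was -0.10 (SE 0.24). Col3a1, the chain of type III collagen of pliable dermis, stood at 5611 and 6198 CPM in controls and at 6214 and 3865 CPM in Fgf7 ears. It had the same order of libraries at the top and bottom (log2 fold change -0.23, SE 0.26). Col5a1, a chain of the type V collagen that sets fibril diameter, stood at 1075 and 1556 CPM against 1420.2 and 997 CPM (log2 fold change -0.12, SE 0.27).

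Col1a2, the other chain of type I collagen, had the lowest p of the 21 members. It stood at 707 and 715 CPM in control ears and at 547 and 338 CPM in Fgf7 ears. Both controls were nearly equal and both Fgf7 ears were lower, with an Fgf7 to control ratio of 0.773 for rat 1 and 0.473 for rat 2. The log2 fold change was -0.68 (SE 0.26), and edgeR gave an unadjusted p of 0.0401 (adjusted p = 0.9996). The unadjusted p by edgeR was 0.0597 with rat as a replicate block and 0.0143 with no filter beyond 1 count (adjusted p = 0.975). The log2 fold change was -0.38 without the Fgf7 library of rat 2 and -1.07 without that of rat 1. The table lists Col1a2 as ENSMUSG00000029661 at mouse chr6:4504814-4541544, plus strand, and its length as 12426 bases.

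Among the minor fibrillar genes, Col5a2, the partner of Col5a1 in type V collagen, also lay lower in both Fgf7 ears. It stood at 91.9 and 106 CPM in controls and 78.4 and 83.8 CPM in Fgf7 ears (log2 fold change -0.29, SE 0.23). Col27a1, a fibrillar collagen also made in cartilage, stood at 33.4 and 107 CPM in controls and at 38.1 and 19.4 CPM in Fgf7 ears. Its control library of rat 2 was far above the other 3, and its log2 fold change was -1.29 (SE 0.62, unadjusted p of 0.0800 by edgeR). Without that library it was -0.22, and without the other ones it ranged from -1.90 to -0.89. Col5a3 had 3 and 9 counts in controls and 1 and 7 in Fgf7 ears, and Col24a1 had 1 count in all.

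**Figure D2:**
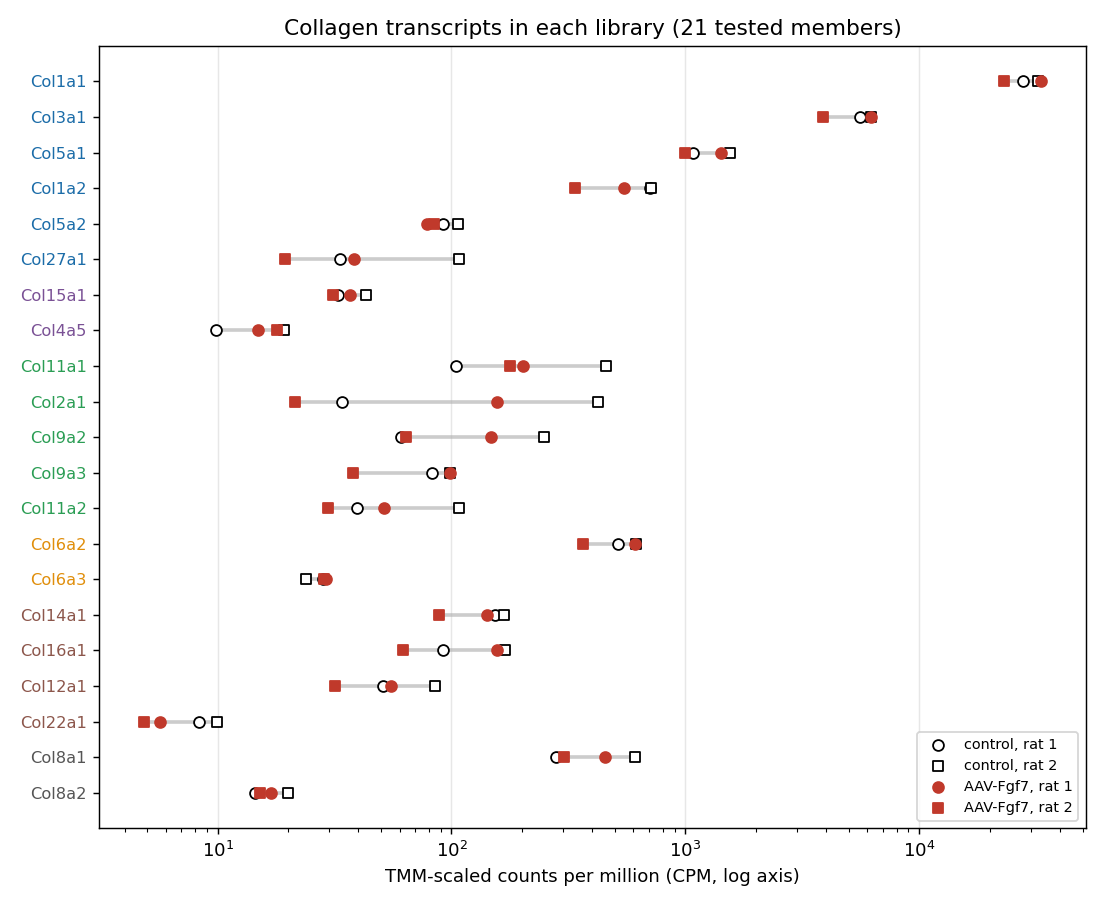
TMM-scaled CPM (x axis, log scale) of the 21 tested collagen genes in each of the 4 libraries. Open symbols are control ears and filled symbols Fgf7 ears, with circles for rat 1 and squares for rat 2; the open square (control, rat 2) is rightmost for 18 of the 21 genes.

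Type I collagen is mostly assembled from Col1a1 and Col1a2 chains, yet the counts of these chains were far from each other. Per gene model length, as the authors' FPKM, Col1a1 was 74.4 and 85.2 times Col1a2 in control ears, and 115 and 129 times in Fgf7 ears. The ratio needs no scaling between libraries, and it was higher in the Fgf7 ear by 1.54 times in rat 1 and 1.51 times in rat 2. The groups did not overlap, but with 2 libraries against 2 an exact permutation test cannot go below a two-sided p of 0.33. The ratio was singled out after its values were seen. Counts of Col3a1, Col5a1, Col6a2 and Col14a1 relative to Col1a2 were likewise higher in both Fgf7 ears than in both controls. For Col3a1 they were 7.94 and 8.67 in controls and 11.4 in each Fgf7 ear. The groups overlapped for Col5a2 (0.130 and 0.149 against 0.143 and 0.248) and for Col12a1 (0.0720 and 0.119 against 0.101 and 0.0943), the other members set against Col1a2. All these ratios share the Col1a2 count, so they are not separate observations.

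Uneven partner chains occurred in other trimers too. FPKM of Col5a1 was 13.2 and 16.5 times that of Col5a2 in controls and 20.5 and 13.4 times in Fgf7 ears. For type VIII, FPKM of Col8a1 was 11.1 to 17.5 times that of Col8a2, and whether these chains share a trimer was not tested. In type VI collagen, built from equal numbers of its main chains, Col6a2 had 2993 counts over the 4 libraries, Col6a3 had 155 and Col6a1 had 0. A count of 0 among 5750998 allows up to 0.522 CPM, by counting error alone. FPKM of Col6a3 was 0.0271 to 0.0544 times that of Col6a2. In cartilage, Col11a1 was 1.42 to 3.22 times Col11a2 and Col9a2 was 0.914 to 3.13 times Col9a3, whereas Col9a1 was 0.0138 to 0.0565 times Col9a3. What part the mouse gene models have in such gaps was not tested.

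**Figure D3:**
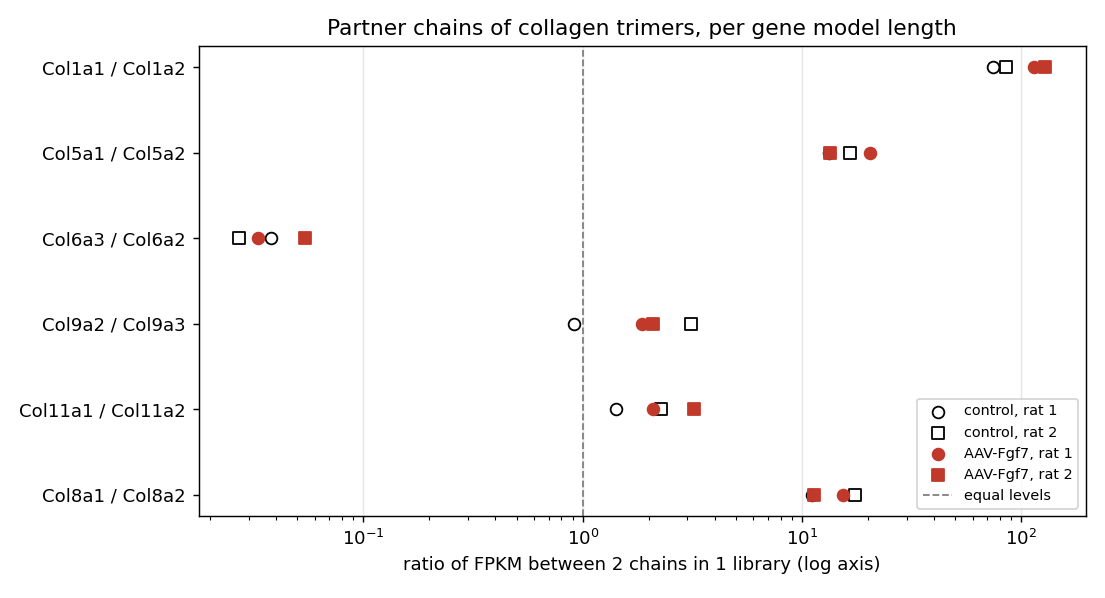
Ratio of FPKM between partner chains in each library (x axis, log scale), for the 6 pairs in which both chains had at least 95 counts; the dashed line marks equal levels. For Col1a1 over Col1a2 the filled AAV-Fgf7 symbols (115 and 129) lie right of the open control symbols (74.4 and 85.2), while the other pairs overlap.

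Cartilage collagens had the widest median range of any class, 4.08 times from the lowest to the highest library, and none of the tested members separated the groups. Col2a1, the main chain of cartilage fibrils, stood at 34.2 and 421 CPM in control ears and at 157 and 21.5 CPM in Fgf7 ears. The control of rat 2 was highest and the Fgf7 ear of the same rat lowest, 19.6 times apart, the widest range of any tested member. Its log2 fold change of -1.36 had an SE of 1.22, and without the control of rat 2 it was 1.38. The table lists Col2a1 as ENSMUSG00000022483 at mouse chr15:97975602-98004695, minus strand.

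Col9a2, a chain of the type IX collagen that coats cartilage fibrils, stood at 60.7 and 248 CPM in controls and at 148 and 63.7 CPM in Fgf7 ears. Col9a3, its partner, stood at 82.8 and 98.5 CPM against 98.2 and 38.1 CPM. Col11a1, which with Col11a2 forms the core of cartilage fibrils, stood at 105 and 457 CPM in controls and at 202 and 179 CPM in Fgf7 ears. Each of these genes was highest in the control of rat 2, by a narrow margin for Col9a3. Col11a2 stood at 39.5 and 108 CPM against 51.6 and 29.8 CPM. All 5 tested members of the class had log2 fold changes below 0 (median -0.56), 0 were called, and in each the groups overlapped. Without the control of rat 2, 4 of the 5 were above 0 and the median was 0.80. The median was -1.26 without the control of rat 1 and -1.27 without the Fgf7 ear of rat 1. Col11a1 was the 1 member called in any fit that was run, with a log2 fold change of -1.26 and an edgeR adjusted p of 0.0484 without the control of rat 1, a fit that compares both Fgf7 ears with the lone control of rat 2.

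Summed cartilage genes other than collagens were also highest in the control of rat 2 and next in the Fgf7 ear of rat 1. They reached 352 and 905 CPM in control ears, against 539 and 354 CPM in Fgf7 ears, from 6 of 13 members with a count. Acan, Comp and Sox9 had this order of the highest libraries, while Hapln1, Matn3 and Matn4, with few counts, were highest in the Fgf7 ear of rat 1. Acan, the aggregating proteoglycan of cartilage, stood at 213 and 541 CPM against 311 and 216 CPM. Matn1, Snorc, Chad, Cnmd, Cytl1, Epyc and Ucma had no counts. Skeletal muscle genes, 15 of 16 with a count (Tnnc2 at 0), reached 15279 and 63863 CPM together in controls and 33281 and 16174 CPM in Fgf7 ears. Cartilage and muscle markers thus moved with the cartilage collagens between libraries, and their part in these results was not tested. The low-count members of the class had the same highest library, with Col9a1 at 2 and 11 counts in controls against 6 and 1, and Col10a1, of hypertrophic cartilage, at 1 and 7 against 3 and 2.

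**Figure D4:**
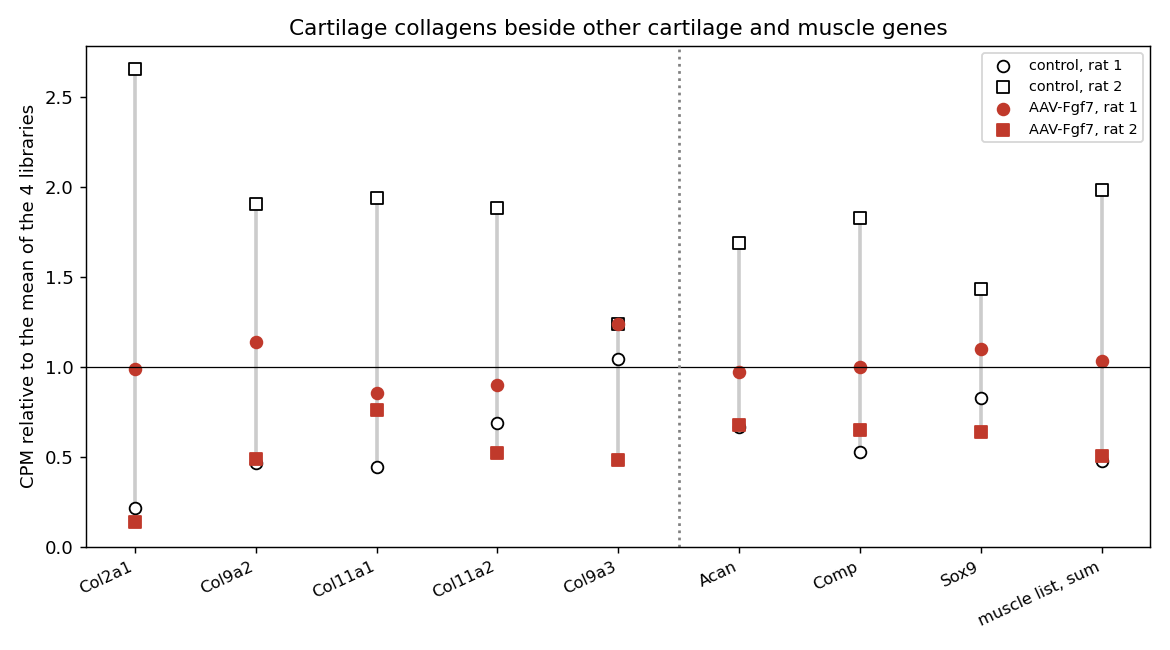
Level of 5 cartilage collagens, 3 other cartilage genes and the summed skeletal muscle list in each library, as CPM divided by the mean of the 4 libraries (y axis from 0; symbols as open for control, filled for AAV-Fgf7, circles for rat 1, squares for rat 2). The control of rat 2 is at the top in every column, level with the Fgf7 ear of rat 1 for Col9a3.

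As paired here, most collagens differed between ears in opposite directions in the 2 rats, as did the sums of several marker lists. The second treated column was taken as rat 2 from its number and the title only, and this pattern rests on that pairing. Under it, the deviations of a rat's 2 ears from their groups had r = -0.30 across 6370 genes. With the treated columns exchanged, most members would instead be lower in the Fgf7 ear of both rats, and r would change sign. In rat 1, 4 of 21 members were lower in the Fgf7 ear (19.0%, beside 49.8% of all tested genes), and in rat 2, 20 of 21 were lower there (95.2%, beside 49.1%). Higher in rat 1 and lower in rat 2 were 16 members, 76.2% beside 29.2% of all genes. The members lower in the Fgf7 ear of both rats were the same 4 that lay below both controls, 19.0% beside 19.9% of all genes. The control library of rat 2 was the highest of the 4 for 18 members, 85.7% beside 29.3%. These ranks are of TMM-scaled levels, and this library had the lowest TMM factor (0.948, beside 0.999 to 1.03). Some margins were narrow, as for Col1a2 (715 CPM, beside 707 CPM in the control of rat 1). Ranks on plain library totals were not counted. The Fgf7 library of rat 2 was the lowest for 14 members, 66.7% beside 25.3%, and 12 members had both marks, 57.1% beside 11.9%. The control of rat 1 was the lowest for 5 members (23.8% beside 25.7%), and the highest for 0 (beside 26.2%). Col1a1, Col3a1 and Col6a3 were highest in the Fgf7 ear of rat 1 (14.3% beside 19.3%), and 0 members in that of rat 2 (beside 25.1%). Col5a2 was lowest in the Fgf7 ear of rat 1 (4.76% beside 19.8%) and Col6a3 in the control of rat 2 (4.76% beside 29.2%). Members share these 4 libraries, so they are not independent observations of this pattern. With 1 library per ear and rat, the difference between rats could not be tested. Hair follicle markers, 14 of 18 with a count (Krt72, Krt35 and Krt75 at 0), also stood higher in the Fgf7 ear of rat 1 and lower in that of rat 2, at 47.8 and 1523 CPM in sum in controls and 4719 and 267 CPM in Fgf7 ears. Adipocyte markers, 5 of 8 with a count (Adipoq, Cidec and Lipe at 0), gave 329 and 616 CPM against 388 and 358 CPM, highest in the control of rat 2. Other sums stood lower in the Fgf7 ear of rat 1 and higher in that of rat 2. Suprabasal keratinocyte markers gave 1009 and 643 CPM in controls against 941 and 2741 CPM. Schwann cell markers gave 1402 and 1520 CPM against 1243 and 1549 CPM, and macrophage markers 382 and 146 CPM against 205 and 278 CPM. The bone sum was lower in the Fgf7 ear of both rats. The part of these tissues in the collagen pattern was not tested.

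**Figure D5:**
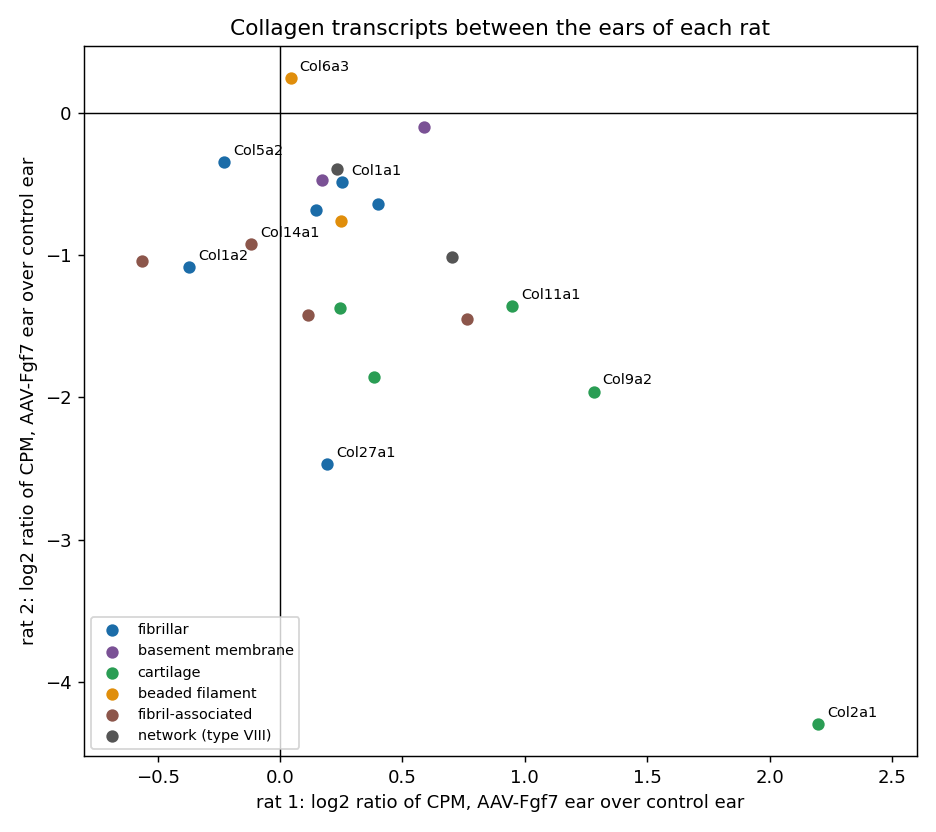
Log2 ratio of CPM, Fgf7 ear over control ear, in rat 1 (x axis) and rat 2 (y axis) for the 21 tested collagen genes, coloured by class. In the lower right quadrant, higher in rat 1 and lower in rat 2, lie 16 genes, and in the lower left, lower in both, lie Col1a2, Col5a2, Col14a1 and Col22a1.

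The sum of dermal fibroblast markers, like Col1a1, Col3a1 and Col5a1, was lowest in the Fgf7 ear of rat 2. These genes, 6 of 11 with a count, came to 15496 and 21264 CPM in control ears, against 20517 and 12136 CPM in Fgf7 ears. Most of that sum was Sparc, a collagen-binding matrix protein, at 12364 and 18065 CPM in controls and at 17271 and 9462 CPM in Fgf7 ears. Fn1 (2818 and 2783 CPM against 2908 and 2337 CPM) was also lowest in the Fgf7 ear of rat 2. So was Fbn1, by a narrow margin (219 and 278 CPM against 220 and 217 CPM). Other members of the list had other orders. Pdgfra, a growth factor receptor of fibroblasts, was highest in the Fgf7 ear of rat 2 (15.9 and 16.0 CPM against 16.2 and 17.3 CPM), and Fbln1, a matrix glycoprotein, was lowest in the control of rat 1 (78.2 and 120 CPM against 102 and 100.4 CPM). Basal keratinocyte genes, 9 of 10 with a count (Lama3 at 0), had another order, with 1292 and 1244 CPM in controls and 1984 and 3731 CPM in Fgf7 ears. In that list, Lamb3 (34.9 and 70.6 CPM against 51.6 and 45.0 CPM) and Dst (19.7 and 25.3 CPM against 24.7 and 20.1 CPM) were highest in the control of rat 2. The other members with a count were highest in the Fgf7 ear of rat 2. The Fgf7 library of rat 2, lowest for 14 collagens, was thus the highest for summed basal keratinocyte genes. Whether a larger share of epidermis in that piece has a part in the collagen levels was not tested.

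Fibril-associated collagens sit on the surface of fibrils and link them to other matrix. Col14a1 stood at 154 and 168 CPM in control ears and at 142 and 88.6 CPM in Fgf7 ears, lower in both (log2 fold change -0.48, SE 0.27). Col22a1, a collagen of the muscle and tendon junction, was also lower in both, at 11 and 15 counts in controls and 8 and 7 in Fgf7 ears (log2 fold change -0.80, SE 0.53). Col12a1, found in dense dermis and tendon, stood at 50.9 and 85.2 CPM against 55.1 and 31.8 CPM (log2 fold change -0.65, SE 0.40). Col16a1 stood at 91.9 and 170 CPM against 156 and 62.3 CPM, so its groups overlapped widely (log2 fold change -0.26, SE 0.49). Of the 4 tested members 0 were called, and their median was -0.56. It was -0.24 without the Fgf7 library of rat 2, -0.32 without the control of rat 2 and -0.98 without the Fgf7 library of rat 1. Col20a1 had 0 and 5 counts in controls and 2 and 1 in Fgf7 ears, and Col19a1 had none.

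Type VI collagen forms beaded filaments around cells. Col6a2 stood at 514 and 616 CPM in controls and at 612 and 363 CPM in Fgf7 ears (log2 fold change -0.21, SE 0.28). Col6a3 was the steadiest tested member, at 28.1 and 24.0 CPM against 29.0 and 28.4 CPM, with a ratio of 1.21 between its highest and lowest library. It lay above both controls by a log2 fold change of 0.14 (SE 0.32), from 36 to 41 counts a library. Col6a6 had 1 and 1 counts in controls against 2 and 0, and Col6a1, Col6a4 and Col6a5 had none.

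The type VIII genes encode short chains that form networks in vessel walls and other matrix. Col8a1 stood at 280.2 and 610.3 CPM in control ears and at 456 and 302 CPM in Fgf7 ears. The control of rat 2 was highest, as for cartilage collagens, and the log2 fold change was -0.23 (SE 0.40). Col8a2 had 19 and 30 counts against 24 and 22 (log2 fold change -0.10, SE 0.40). Transmembrane and other collagens had few counts. Col13a1, a transmembrane collagen of cell adhesion sites, had 3 and 4 counts in controls and 9 and 6 in Fgf7 ears, Col23a1 had 3 and 4 against 7 and 3, and Col25a1 had 1 and 10 against 3 and 5. Col28a1 had 7 counts in all and Col26a1 had 1.

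Basement membrane collagens held 0.138% and 0.165% of collagen counts in controls and 0.138% and 0.180% in Fgf7 ears. Col15a1, a proteoglycan collagen that anchors basement membranes to the fibrils below, stood at 32.6 and 43.3 CPM in controls and at 36.7 and 31.2 CPM in Fgf7 ears (log2 fold change -0.16, SE 0.32). Col4a5, a type IV chain of epithelial basement membranes, stood at 9.87 and 19.3 CPM against 14.8 and 18.0 CPM. Its groups overlapped (log2 fold change 0.16, SE 0.47). Its partner Col4a6 had 0 and 0 counts in controls and 2 and 1 in Fgf7 ears. Col18a1, another proteoglycan collagen and the source of endostatin, had 4 counts in the control of rat 1 and 0 elsewhere.

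Col4a1 and Col4a2, the pair that makes up most type IV collagen of vessels and skin, had counts close to each other but very low. Col4a1 had 4 and 6 counts in controls and 6 and 2 in Fgf7 ears, and Col4a2 had 3 and 9 against 4 and 3. Both were below the filter; with no filter beyond 1 count their log2 fold changes were -0.32 (SE 0.96) and -0.75 (SE 0.94). They share the stretch of promoter printed in capitals above, and in the deposited table their gene models on mouse chromosome 8 overlap by 22 bases, with Col4a1 on the minus strand from 11198423 to 11312826 and Col4a2 on the plus strand from 11312805 to 11449287. Col4a3 and Col4a4, also back to back, had no counts. Laminin, nidogen and proteoglycan genes of the same membranes had mixed levels: 2 of 15 (Lama1 and Lama3) had no counts and the other 13 had 2 to 734 counts in all, with a median of 217. Endothelial markers, 8 of 10 with a count (Emcn and Egfl7 at 0), summed to 139 and 170 CPM against 144 and 150 CPM. Their totals ran from 2 to 338 counts, and 4 of the 8 had at most 20.

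Epidermal anchoring collagens were the members nearest to the target cells of FGF7, and both fell below the filter. Col17a1, the transmembrane collagen of hemidesmosomes in basal keratinocytes, had 9 and 5 counts in control ears and 8 and 16 in Fgf7 ears. Its level was 6.83 and 3.33 CPM in controls and 5.65 and 11.1 CPM in Fgf7 ears, so the groups overlapped. Its Fgf7 to control ratio was 0.827 for rat 1 and 3.33 for rat 2. Krt5, a keratin of the same basal cells, stood at 220.2 and 232 CPM in controls and at 338 and 862 CPM in Fgf7 ears. For both Col17a1 and Krt5 the Fgf7 ear of rat 2 was highest. Lamb3 and Dst of the basal keratinocyte list were instead highest in the control of rat 2. They stood there at 70.6 and 25.3 CPM, and in the Fgf7 ear of rat 2 at 45.0 and 20.1 CPM. Col7a1, the chain of the anchoring fibrils made by keratinocytes and fibroblasts, had 1 count, in the control of rat 1. With no filter beyond 1 count, edgeR gave Col17a1 a log2 fold change of 0.72 (SE 0.68) and called neither gene.

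Genes that make, cut, bind and degrade collagen were read from 5 lists, and 0 of their 40 tested members were called by edgeR over all genes, with 0 at an unadjusted p under 0.05. In the list of folding and hydroxylation, 13 of 21 members were tested, 10 with log2 fold changes below 0 (median -0.08). P3h1, a prolyl hydroxylase of the endoplasmic reticulum, had 41 and 40 counts in controls and 25 and 22 in Fgf7 ears (log2 fold change -0.81, SE 0.35, unadjusted p of 0.0606 by edgeR). Fkbp10, a collagen chaperone, stood at -0.32 (SE 0.21), and P4ha1, P4ha2 and Tmem38b had no counts. All 10 tested of 14 members for propeptide cleavage and crosslinking were below 0 (median -0.23), beside 52.2% of all genes, but 6 of 10 were without the control of rat 2 and 6 of 10 without the Fgf7 ear of rat 2. In the folding list the count was 5 of 13 without the Fgf7 ear of rat 1 (median 0.04). Of the cleavage and crosslinking genes, Tll1, a procollagen protease, stood at -0.74 (SE 0.45) and Loxl3, a lysyl oxidase that links chains, at -0.35 (SE 0.35).

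Of the collagen receptors, 4 of 10 were tested (2 above and 2 below 0, median -0.08). Ddr1, a collagen-binding kinase of epithelia, stood at 0.48 (SE 0.29), and Itgb1, the shared integrin beta chain, at -0.17 (SE 0.19). Of 7 proteases that degrade collagen, 4 (Mmp3, Mmp8, Mmp9 and Mmp13) had no counts and both tested genes were below 0. Mmp2, a gelatinase of fibroblasts, stood at 421 and 473 CPM in controls and 376 and 320 CPM in Fgf7 ears (log2 fold change -0.36, SE 0.19), and its activator Mmp14 at -0.28 (SE 0.21). Among 15 basement membrane partners of type IV collagen 11 were tested, 5 above and 6 below 0 (median -0.06), and 10 were above 0 without the control of rat 2 (median 0.23). Agrn, a heparan sulfate proteoglycan, stood at 0.41 (SE 0.25) and Lamb2, a laminin beta chain, at -0.63 (SE 0.42) on the log2 scale.

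Some collagen genes are neighbours in the deposited coordinates. Col3a1 and Col5a2 lie end to end on mouse chromosome 1 with 24614 bases between them, and had log2 fold changes of -0.23 and -0.29. Their libraries were ordered differently, since the Fgf7 ear of rat 1 was the highest for Col3a1 and the lowest for Col5a2. Col6a2 and Col6a1 lie on the same strand of mouse chromosome 10, 85161 bases apart, with 2993 and 0 counts.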

How the data were processed

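RNA-seq was read from ear skin of 2 rats, with 2 control and 2 AAV-Fgf7 libraries of 1299136 to 1601321 counts. The authors deposited raw counts per gene and FPKM (counts scaled by listed gene length and an effective library total), per the file headers. The aligner and the counter are unstated in the sources used here. The submitters' processing notes name the build Rnor_6.0 (rn6), while identifiers and coordinates are mouse Ensembl. The sample descriptions point both treated samples to 1 column; the second treated column was taken as rat 2 from its number and the title.

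From the deposited counts, genes were filtered (filterByExpr), scaled (TMM) and tested two-sided by quasi-likelihood in edgeR 4.0.16 (R 4.3.3) over 6370 genes, with Benjamini-Hochberg adjustment at 0.05; all adjusted p-values come from it unless another tool is named. SE is the size of the log2 fold change over the root of F. CPM uses TMM-scaled totals. Binomial intervals are exact (scipy 1.17.1). DESeq2 1.42.0, limma 3.58.1, other filters and scalings, FPKM fits on log2(FPKM + 1) or log2(FPKM + 0.1), and fits leaving out a library were alternatives. The script was tested on simulated data.

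The collagen members, their 7 classes and the lists were chosen with earlier results of these data known. Named were all members, Fgf7, the 2 tested genes of lowest p in each of 5 pathway lists, list genes with no counts, and marker genes where a result turned on them. Rat numbers pair the ears by animal, but the deviations of a rat's 2 ears from their groups had r = -0.30 across 6370 genes, which are not independent replicates; the block on rat was an alternative.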

Additional observations from a re-analysis of the deposited data

How the results depend on the processing

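The edgeR count of 0 called genes became 3 with no filter beyond 1 count and 4 with DESeq2, of which 0 were collagens. When 1 library was left out it ranged from 0 to 19 genes, and that of collagen members from 0 to 1 (Col11a1, without the control of rat 1). With rat as a replicate block it was 0, with 75 genes at an unadjusted p under 0.05 against 148, and the block changed no call. A crossed replicate block, chosen after seeing the data, called 0 genes, with 301 at an unadjusted p under 0.05. RLE factors, library totals, a mean count of at least 10, limma-voom and the FPKM fits changed no direction of a tested member and called 0 of them.

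Directions turned only when a library was left out. Without the control of rat 2, log2 fold changes became 1.38 for Col2a1, 0.86 for Col11a1, 0.80 for Col9a2, 0.44 for Col8a1, 0.25 for Col16a1, 0.17 for Col5a1, 0.16 for Col8a2, 0.06 for Col15a1, 0.04 for Col11a2 and 0.01 for Col1a1. Without the Fgf7 library of rat 2 they became 0.25 for Col16a1, 0.14 for Col1a1, 0.11 for Col5a1, Col6a2 and Col9a3, 0.07 for Col3a1 and 0.03 for Col8a1. Without the control of rat 1, Col4a5 became -0.23. Over the 4 fits that leave out a library, the range was Col11a1 -1.26 to 0.86, Col11a2 -1.41 to 0.04, Col15a1 -0.35 to 0.06, Col16a1 -1.06 to 0.25, Col1a1 -0.38 to 0.14, Col2a1 -3.40 to 1.38, Col3a1 -0.61 to 0.07, Col4a5 -0.23 to 0.73, Col5a1 -0.39 to 0.17, Col6a2 -0.63 to 0.11, Col8a1 -0.69 to 0.44, Col8a2 -0.31 to 0.16, Col9a2 -1.27 to 0.80 and Col9a3 -1.24 to 0.11. The cause was not tested. As shares of summed FPKM in place of counts, the beaded filament class held 1.23% in controls and 1.16% in Fgf7 ears, and the type VIII, transmembrane and other class 1.04% in Fgf7 ears. In such fits the lone library of a group is assumed to vary like those of the other group. Log2 fold changes kept their direction but moved for Col27a1 (-1.90 to -0.22), Col12a1 (-1.09 to -0.23), Col1a2 (-1.07 to -0.38) and Col14a1 (-0.85 to -0.18). Of the 23 members below the filter, 17 could be fitted with no filter beyond 1 count, of which 12 were below 0 and 0 were called; the 6 with no counts could not be tested.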
